A study of Mus musculus with 12 samples.

Results

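Csf1r, Cd68, Mrc1, Lyve1, C1qa, C1qb, C1qc, Cx3cr1, Cd163 and F13a1 are genes read as marks of tissue macrophages. They were taken by name, as the entries of the deposited count table whose symbol equals 1 of these 10 names, and all 10 were found among 36186 genes. Their RNA was measured in whole kidneys of mouse embryos at E18.5, in 12 libraries of 4 genotypes with 3 libraries each, in a study of the Abdominal-B Hox genes in the developing kidney. The wild type libraries are Wt_30, Wt_37 and Wt_55. AkCh libraries (AkCh_20, AkCh_31 and AkCh_33) are labelled Hoxa9,10,11-/- with HoxC9,10,11+/-, AhCk libraries (AhCk_38, AhCk_110 and AhCk_115) are labelled Hoxa9,10,11+/- with HoxC9,10,11-/-, and AkCk libraries (AkCk_24, AkCk_27 and AkCk_29), the double homozygous mutants, are labelled Hoxa9,10,11-/- with HoxC9,10,11-/-. All groups share a mixed background of 129 and CD1 mice. The mutant alleles are frameshifts, so RNA of the mutated genes can remain.

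Tissue macrophages of embryonic organs descend largely from yolk sac and fetal liver progenitors, settle early in development and then renew within the organ. In the kidney they lie between the tubules and beside vessels, take up dying cells and debris, and are known to depend on signalling through the receptor Csf1r. Mrc1, Cd163, Lyve1 and F13a1 are used together to mark resident macrophages near vessels, while Cx3cr1, Cd68 and the C1q chains are made by most kidney macrophages.

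Some properties of the groups limit each comparison. The study reports no detectable kidneys at E18.5 in mice lacking all of Hoxa9, Hoxa10 and Hoxa11 together with the Hoxc genes. It gives the sequenced double mutants as carrying at least 1 intact Hoxa11 allele. The labels give these mutants as Hoxa11-/- and leave the Hoxa11 alleles of each library unknown. All AhCk libraries come from another sequencing run than the other 9 libraries, so run and genotype cannot be told apart there. Nothing in the labels says that the libraries of a group come from different litters. Sex was not balanced. Xist RNA, which is made from the inactive X chromosome of females, was 72.6 CPM in AkCk_27, 60.1 in AkCk_29, 190 in AkCh_31, 253 in AkCh_33 and 336 in AhCk_110, and at most 0.138 CPM (the count scaled to the depth of the library times its TMM factor) in the other 7 libraries, among them all wild type libraries. A fit of the 9 libraries of 1 run with Xist as a covariate put 10 of 10 members and 767 of all genes past the threshold in AkCk against wild type. In AkCh against wild type it turned the direction of Csf1r (-0.14), C1qb (0.35) and C1qc (0.30). It also put Cd68 at 0.53 and C1qa at 0.49, against 0.12 and 0.18 without the covariate in the fit of these groups alone. Over all alternatives in AkCh against wild type, F13a1 was as low as 0.07 and Cx3cr1 as high as 0.54.

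AkCh_20 stood apart from the other libraries. It had the lowest depth (28616878 counts on genes, against 33106687 to 47067926 in the others), its 10 most abundant genes took 5.23% of counts against 3.52% to 4.23%, and its TMM factor was 0.905 against 0.973 to 1.04. Its Hoxc10 level was 121 CPM, against 45.3 in AkCh_31 and 41.6 in AkCh_33, and its level of Slc34a1, a phosphate transporter of the proximal tubule, was 83.0 CPM against 580 and 1068. Results of the AkCh group are given with and without it.

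The label was checked on other genes. As a check of the tissue, genes of kidney cells were chosen after the data were seen, and those given here had RNA in all 12 libraries. Pax2 of the nephric lineage had from 58.5 to 165 CPM, Wt1 of nephron progenitors and podocytes from 109 to 204, Slc34a1 of the proximal tubule from 83.0 to 1087, Umod of the thick ascending limb from 140 to 481 and Aqp2 of the collecting duct from 148 to 269. As a check of the cell type, 19 other genes common to macrophages were measured in the same libraries. All 19 had counts in each library, and the defining gene Emr1, which codes for F4/80, had 5.46, 5.30 and 3.61 CPM in wild type and 14.3, 14.4 and 10.7 in AkCk. These are whole kidneys, so none of the values belongs to sorted cells, and more cells of a type cannot be told apart from more RNA per cell.

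Promoter sequences of members are shown because genes of this kind are known targets of the macrophage transcription factor PU.1, coded by Spi1. RefSeq windows from 250 bases before to 50 after the start, of build GRCm38.p6, were at hand for 7 of 10 members (8 starts, F13a1 having 2), and not for Csf1r, Lyve1 and C1qa. Capitals mark matches, on either strand, to GAGGAA (a core of PU.1 sites), GAGGAAGT (a longer form, which holds the first) and TGAGTCA (the AP-1 motif), motifs chosen after the sequences were seen. The windows below are those of Mrc1 (chr2:14229164-14229463, plus strand), C1qb (chr4:136886151-136886450, minus strand), C1qc (chr4:136892865-136893164, minus strand), Cd68 (chr11:69666121-69666420, minus strand) and the second start of F13a1 (chr13:37049164-37049463, minus strand), each written 5′ to 3′ along its gene.
Mrc1: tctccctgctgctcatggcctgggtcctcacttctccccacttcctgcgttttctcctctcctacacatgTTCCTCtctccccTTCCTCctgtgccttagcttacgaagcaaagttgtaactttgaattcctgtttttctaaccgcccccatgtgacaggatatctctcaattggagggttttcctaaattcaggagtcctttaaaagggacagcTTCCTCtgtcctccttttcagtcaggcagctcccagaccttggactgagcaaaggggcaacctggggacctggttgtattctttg
C1qb: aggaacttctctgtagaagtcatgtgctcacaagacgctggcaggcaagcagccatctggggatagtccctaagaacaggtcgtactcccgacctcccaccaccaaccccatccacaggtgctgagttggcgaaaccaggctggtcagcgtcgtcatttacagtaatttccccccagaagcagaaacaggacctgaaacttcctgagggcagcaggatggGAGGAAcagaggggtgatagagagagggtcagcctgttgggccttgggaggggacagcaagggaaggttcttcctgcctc
C1qc: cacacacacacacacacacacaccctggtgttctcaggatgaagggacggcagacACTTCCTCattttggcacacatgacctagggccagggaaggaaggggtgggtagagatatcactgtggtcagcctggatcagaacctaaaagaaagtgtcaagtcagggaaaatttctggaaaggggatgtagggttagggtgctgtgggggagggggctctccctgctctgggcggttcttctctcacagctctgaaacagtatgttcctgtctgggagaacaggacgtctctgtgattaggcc
Cd68: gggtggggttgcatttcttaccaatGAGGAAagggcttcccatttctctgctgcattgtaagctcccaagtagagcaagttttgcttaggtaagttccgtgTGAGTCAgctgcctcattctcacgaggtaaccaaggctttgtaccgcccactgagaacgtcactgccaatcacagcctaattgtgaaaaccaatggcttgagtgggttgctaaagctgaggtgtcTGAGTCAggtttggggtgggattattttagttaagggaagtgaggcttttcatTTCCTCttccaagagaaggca
F13a1, second start: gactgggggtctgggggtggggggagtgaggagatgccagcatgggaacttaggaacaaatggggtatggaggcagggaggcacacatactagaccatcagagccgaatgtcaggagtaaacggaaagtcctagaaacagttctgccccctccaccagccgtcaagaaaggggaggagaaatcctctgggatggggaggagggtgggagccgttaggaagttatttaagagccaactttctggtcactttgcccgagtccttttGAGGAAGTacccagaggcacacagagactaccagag

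GAGGAA was found in 6 of 8 windows, from 5 of 7 members (Mrc1, C1qb, C1qc, Cd68 and F13a1), and in 28.3% of all 32851 promoter windows of this length. GAGGAAGT was found in the window of C1qc and the second window of F13a1, and in 3.2% of all windows. TGAGTCA was found only in Cd68, at 2 places, and in 5.2% of all windows. The windows of Cx3cr1 and Cd163 held none of the 3 motifs. A match is a run of letters and says nothing on binding of the factor.

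In the double homozygous mutants the macrophage genes were higher than in wild type. All 10 members passed the filter on low counts in each comparison, and 9 of 10 rose at an adjusted p under 0.05 by edgeR, where 6.31% of 15839 genes tested were called higher. In 10 of 10, each AkCk library lay above each wild type library, which held for 17.3% of genes tested. The median log2 fold change of the members was 1.08, against -0.01 over all genes tested, and 7 of 10 members were above 2-fold, as were 505 of the 15839 genes. Summed over the members, the level was 139, 127 and 118 CPM in wild type and 327, 317 and 262 CPM in AkCk. The members were higher by more than the spread between libraries, and no wild type library came near an AkCk library in this sum. For 8 of 10 members the AkCk libraries also lay above all other 9 libraries, against 5.64% of genes tested, the exceptions being Cd68, where AkCh_20 had 5.99 CPM, and C1qb, where AhCk_115 had 14.5.

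**Figure D1:**
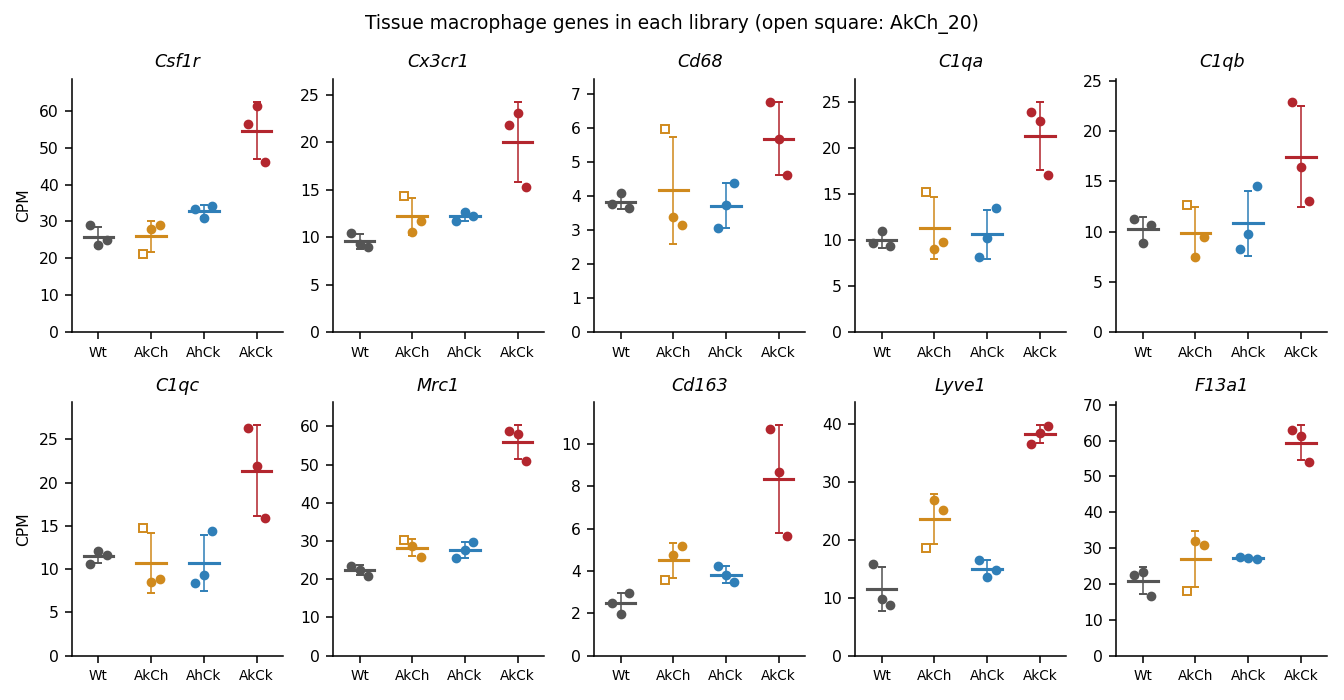
CPM of each of the 10 genes in each library (points), with the group mean (bar) and standard deviation (whisker) of 3 libraries per genotype; the y axes start at 0 and differ between genes. AkCk libraries are highest for 8 of 10 genes, with Csf1r at 46.1 to 61.2 CPM in AkCk and 23.6 to 28.96 in wild type, while AkCh_20, drawn as an open square, is the highest AkCh library for Cd68, C1qa, C1qb, C1qc, Cx3cr1 and Mrc1.

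Csf1r, the receptor for the growth factors Csf1 and Il34 on which most tissue macrophages depend, had 28.96, 23.6 and 24.9 CPM in wild type, 21.2, 27.97 and 28.9 in AkCh, 33.4, 30.9 and 34.2 in AhCk, and 56.4, 61.2 and 46.1 in AkCk. The AkCk libraries were all higher than any other library, and the AhCk libraries came next without overlap with wild type. Csf1r rose in AkCk by 1.08 on the log2 scale (SE 0.13, adjusted p = 0.00404), a fold of 2.11. Cx3cr1, the receptor for the chemokine Cx3cl1, had 10.4, 9.32 and 8.96 CPM in wild type, 14.4, 10.6 and 11.7 in AkCh, 11.7, 12.7 and 12.3 in AhCk, and 21.8, 23.1 and 15.3 in AkCk. All mutant libraries were above all wild type libraries, and AkCk_29 was only a little above AkCh_20. Cx3cr1 rose in AkCk by 1.07 (SE 0.17, adjusted p = 0.00923).

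Cd68, a glycoprotein of lysosomes, was the member that moved least. It had 3.77, 4.08 and 3.66 CPM in wild type, 5.99, 3.40 and 3.14 in AkCh, 3.05, 3.74 and 4.38 in AhCk, and 6.77, 5.68 and 4.62 in AkCk. The AkCk libraries did not overlap wild type, but AkCh_20 was above the lowest of them. The log2 difference of 0.57 (SE 0.18) was not past the threshold (adjusted p = 0.0760), and it was past the threshold by DESeq2 (adjusted p = 0.0325) and with Xist as a covariate in a fit of the 9 libraries of 1 run (0.94, adjusted p = 0.0325), with adjusted p-values from 0.0325 to 0.280 over the alternatives.

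C1qa, C1qb and C1qc code for the chains of C1q, the molecule that starts the classical complement pathway and tags debris and apoptotic cells for uptake. They lie side by side on chromosome 4, from C1qb (start 136880126) through C1qc to C1qa (end 136898844), all on the minus strand. C1qa had 9.68, 11.0 and 9.38 CPM in wild type, 15.2, 9.02 and 9.84 in AkCh, 8.19, 10.2 and 13.5 in AhCk, and 23.9, 23.0 and 17.1 in AkCk. C1qb had 11.2, 8.86 and 10.6 CPM in wild type, 12.7, 7.48 and 9.47 in AkCh, 8.31, 9.74 and 14.5 in AhCk, and 22.9, 16.4 and 13.1 in AkCk. C1qc had 10.6, 12.1 and 11.7 CPM in wild type, 14.7, 8.54 and 8.86 in AkCh, 8.37, 9.29 and 14.4 in AhCk, and 26.3, 22.0 and 15.9 in AkCk. For each chain AkCk_24 was the highest library and AkCk_29 the lowest of its group, and AkCh_20 and AhCk_115 were the highest libraries of theirs. In AkCk the rise was 1.09 for C1qa (SE 0.15, adjusted p = 0.00639), 0.77 for C1qb (SE 0.21, adjusted p = 0.0480) and 0.90 for C1qc (SE 0.18, adjusted p = 0.0208).

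The calls of C1qb and C1qc did not hold with fewer libraries, although their log2 differences stayed above 0. Without Wt_37, Wt_55, AkCk_24 or AkCk_27, neither was past the threshold and 7 of 10 members were: C1qb then had log2 differences of 0.68, 0.80, 0.53 and 0.81 (adjusted p = 0.155, 0.129, 0.116 and 0.0920), and C1qc had 0.95, 0.91, 0.72 and 0.88 (adjusted p = 0.0702, 0.0752, 0.0600 and 0.0568). The count of all genes past the threshold in AkCk against wild type, 2171, moved by over 1.5 times without Wt_30 (3386), Wt_37 (535), Wt_55 (633), AkCk_24 (793) or AkCk_27 (1101). C1qb was also not past the threshold with library size alone as the scaling, nor was C1qb or C1qc with all 12 or the 9 libraries of 1 run in the fit, or by limma on the deposited log2 values, with adjusted p-values over the alternatives from 0.00342 to 0.129 for C1qb and from 6.9e-05 to 0.0851 for C1qc. The other 7 called members kept their calls under each alternative and without each library.

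Mrc1, the mannose receptor, which takes up glycoproteins and microbes, had 23.6, 22.5 and 20.9 CPM in wild type, 30.3, 28.601 and 25.9 in AkCh, 25.6, 27.6 and 29.7 in AhCk, and 58.8, 58.0 and 50.9 in AkCk. Libraries of a genotype differed little, AkCh and AhCk libraries lay just above wild type, and AkCk libraries far above all others. Mrc1 rose in AkCk by 1.32 (SE 0.09), with the smallest adjusted p of the members (0.000668). Cd163, the scavenger receptor for complexes of haemoglobin and haptoglobin, had 2.49, 1.98 and 2.97 CPM in wild type, 3.55, 4.77 and 5.17 in AkCh, 4.23, 3.81 and 3.46 in AhCk, and 10.7, 8.66 and 5.66 in AkCk. Every mutant library was above every wild type library, and AkCk spread the most. Cd163 rose in AkCk by 1.75 (SE 0.27, adjusted p = 0.00847), a fold of 3.36.

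Lyve1, a receptor for hyaluronan of perivascular macrophages that lymphatic endothelium also makes, had 15.8, 9.80 and 8.74 CPM in wild type, 18.6, 26.8 and 25.1 in AkCh, 16.5, 13.5 and 14.7 in AhCk, and 36.6, 38.3 and 39.6 in AkCk. AkCh libraries lay between wild type and AkCk without overlap with either, and AhCk libraries overlapped wild type through Wt_30. Lyve1 rose in AkCk by 1.74 (SE 0.21, adjusted p = 0.00428). F13a1, the A subunit of coagulation factor XIII, which macrophages and megakaryocytes make, had 22.6, 23.4 and 16.6 CPM in wild type, 17.96, 32.1 and 30.8 in AkCh, 27.5, 27.2 and 26.999 in AhCk, and 63.1, 61.2 and 53.9 in AkCk. AhCk libraries were nearly equal, and in AkCh only AkCh_20 was within the wild type range. F13a1 rose in AkCk by 1.51 (SE 0.14, adjusted p = 0.00173).

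**Figure D2:**
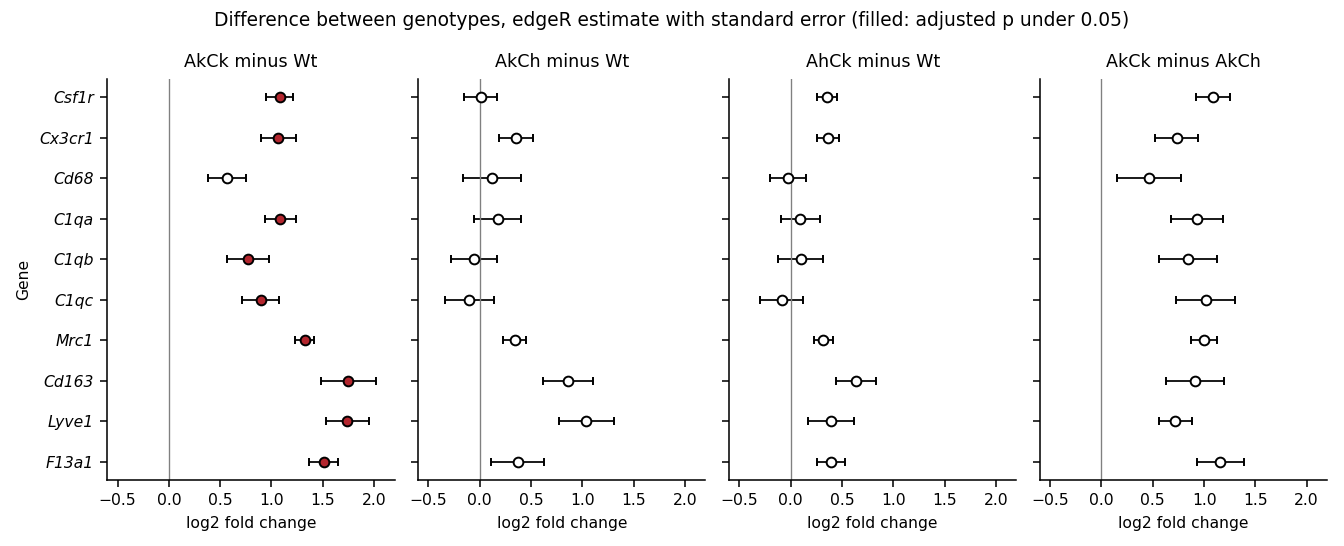
Log2 fold change (x axis) of each gene in the 4 comparisons, as estimated by edgeR, with a standard error derived from the F statistic of its test. Filled points are at an adjusted p under 0.05. Values run from 0.57 (Cd68) to 1.75 (Cd163) in AkCk minus wild type, where 9 of 10 are filled, and no point is filled in the other panels; Csf1r in AkCh minus wild type is 0.01, and -0.06 with library size alone as the scaling.

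In AkCh kidneys no member was past the threshold against wild type by edgeR (0 of 10), and neither was any gene (0% of 15789). At an unadjusted p under 0.05, 3 of 10 members were higher (Lyve1, Cd163 and Mrc1), where 0.817% of genes tested were, and 4 of 10 (these and Cx3cr1) had all AkCh libraries above all wild type libraries, where 3.57% of genes did. DESeq2 called 0 members and 22 genes. The log2 differences were 1.04 for Lyve1 (SE 0.27), 0.86 for Cd163 (SE 0.24), 0.34 for Mrc1 (SE 0.11), 0.35 for Cx3cr1 (SE 0.16) and 0.37 for F13a1 (SE 0.26). The C1q chains had 0.18, -0.05 and -0.10 (C1qa, C1qb, C1qc), Cd68 had 0.12 and Csf1r had 0.01, which was -0.06 with library size alone as the scaling. The median over the members was 0.26, against 0.03 over all genes tested, and the adjusted p of each member was 1.00.

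Leaving out AkCh_20 changed which members were higher in AkCh. Without it 0.0188% of 15967 genes were called higher and 0 of 10 members were past the threshold (8 genes in all), the median was 0.18 against -0.01 over all genes tested, and 6 of 10 members were above 0. Lyve1 then had 1.18, Cd163 1.00, F13a1 0.59, Mrc1 0.28 and Cx3cr1 0.22. Csf1r was at 0.13, while Cd68 turned to -0.23 and C1qa to -0.10, and C1qb and C1qc were at -0.28 and -0.40. Directions near 0 also turned without other libraries: Csf1r was -0.05 without Wt_37, -0.01 without Wt_55, -0.04 without AkCh_31 and -0.07 without AkCh_33, C1qb was 0.02 without Wt_30 and 0.11 without AkCh_31, and C1qc was 0.04 without AkCh_31 and 0.02 without AkCh_33.

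In AhCk kidneys, also compared with the same wild type libraries, 0 of 10 members were past the threshold by edgeR, where 0.836% of 15902 genes were called higher. At an unadjusted p under 0.05, 5 of 10 were higher (Csf1r, Mrc1, Cx3cr1, Cd163 and F13a1), against 9.88% of genes, and the same 5 had all AhCk libraries above all wild type libraries, against 11.4% of genes. DESeq2 called 1 member, Csf1r (adjusted p = 0.0384), and 1318 of all genes. The log2 differences were 0.64 for Cd163 (SE 0.20), 0.36 for Csf1r (SE 0.10), 0.36 for Cx3cr1 (SE 0.11), 0.32 for Mrc1 (SE 0.09), 0.39 for F13a1 (SE 0.14) and 0.39 for Lyve1 (SE 0.22), with adjusted p-values of 0.109 or more. C1qa and C1qb had 0.10 each, C1qc -0.09 and Cd68 -0.03, and the median was 0.34 against 0.01 over all genes tested. Without AhCk_115, which had the highest Cd68 and C1q levels of its group, C1qa was -0.11 and C1qb -0.17. Cd68 was 0.02 without Wt_37 and 0.08 without AhCk_38, and C1qc was 0.05 without AhCk_38. Markers of other cell types were past the threshold in this comparison, all higher: the stroma markers Lum (1.08), Col3a1 (0.52) and Postn (0.69) of 7 tested, the mast cell markers Cma1 (2.00) and Cpa3 (1.31) of 6, Mmrn1 (1.24) of 6 lymphatic endothelium markers, and Xcr1 (1.98) of 8 MHC class II and dendritic cell genes. The sequencing run of these libraries moves with their genotype, and its part in these values was not tested.

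AkCk kidneys were also compared with AkCh kidneys, from the same run. By edgeR 0 of 10 members were past the threshold, as was no gene (0% of 15764). At an unadjusted p under 0.05, 9 of 10 members were higher, against 5.89% of genes, and 9 of 10 (all except Cd68) had all AkCk libraries above all AkCh libraries, against 9.95% of genes. DESeq2 called 6 members and 554 genes. The log2 difference was 1.16 for F13a1 (SE 0.23), 1.09 for Csf1r (SE 0.17), 1.02 for C1qc (SE 0.29), 1.00 for Mrc1 (SE 0.12), 0.93 for C1qa (SE 0.25), 0.91 for Cd163 (SE 0.28), 0.84 for C1qb (SE 0.28), 0.73 for Cx3cr1 (SE 0.21), 0.72 for Lyve1 (SE 0.16) and 0.47 for Cd68 (SE 0.31). The median was 0.92 against -0.01 over all genes tested. The AkCk libraries are the same in this comparison and in the comparison with wild type.

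Without AkCh_20, 6 of 10 members were past the threshold in AkCk against AkCh, where 2.43% of 15986 genes were called higher (687 genes in all). They were Mrc1 (1.06, adjusted p = 0.0137), F13a1 (0.94, adjusted p = 0.0137), Csf1r (0.96, adjusted p = 0.0195), C1qa (1.20, adjusted p = 0.0199), Lyve1 (0.58, adjusted p = 0.0231) and C1qc (1.32, adjusted p = 0.0283). The other members had adjusted p-values of 0.0535 (Cx3cr1), 0.0631 (C1qb), 0.0863 (Cd68) and 0.155 (Cd163). The median was 0.95, and without any other single library 0 members were past the threshold. With all 12 libraries in the fit 4 members and 540 of all genes were, with the 9 libraries of 1 run 2 members and 181 genes, and with these 9 libraries and Xist as a covariate 6 members and 792 genes.

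Levels of different genes were compared per length, as RPKM, which is CPM per kilobase of exon. In wild type C1qa and C1qb had the highest mean levels, 9.65 and 9.41 RPKM, followed by C1qc at 5.94, Csf1r at 4.48, Lyve1 at 3.92, Mrc1 at 3.51, F13a1 at 3.10, Cd68 at 3.05, Cx3cr1 at 2.12 and Cd163 at 0.454. Wild type libraries of neighbours in this order overlapped except for C1qb and C1qc, C1qc and Csf1r, Cd68 and Cx3cr1, and Cx3cr1 and Cd163. In AkCk the C1qa mean was 20.5 RPKM and the C1qb mean 16.1, and Lyve1 came next at 13.1. C1qa was highest and Cd163 lowest in each genotype. The strand of the RNA is not stated for these libraries, so that reads of Csf1r, Cx3cr1 and F13a1 cannot be told apart from antisense RNA of Hmgxb3, Gm33858 and Gm30489, genes of the other strand whose exons share bases with theirs.

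The C1q chains are joined in equal numbers in the protein, and their RNA was compared per length. Of the summed RPKM of the 3 chains, C1qa took from 36.3% (Wt_55) to 45.5% (AkCk_27) over the 12 libraries. C1qb took from 31.1% (AkCk_27) to 41.1% (Wt_30), and C1qc from 20.2% (AkCh_33) to 25.05% (Wt_37). In AkCk the C1qa share was 39.9%, 45.5% and 44.9%.

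The level of each member was also divided by that of Csf1r in the same library. The Lyve1 ratio was 0.545, 0.415 and 0.350 in wild type, 0.880, 0.958 and 0.867 in AkCh, 0.495, 0.437 and 0.431 in AhCk, and 0.648, 0.626 and 0.859 in AkCk. The Cd163 ratio was 0.0861, 0.0840 and 0.119 in wild type, 0.168, 0.171 and 0.179 in AkCh, 0.127, 0.123 and 0.101 in AhCk, and 0.190, 0.141 and 0.123 in AkCk. Both ratios were higher in all AkCh and all AkCk libraries than in wild type, also without AkCh_20. The F13a1 ratio was 0.780, 0.991 and 0.665 in wild type and 1.12, 0.999 and 1.17 in AkCk, and the Cd68 ratio was 0.130, 0.173 and 0.147 in wild type and 0.120, 0.0928 and 0.1001 in AkCk. On the log2 scale, AkCk minus wild type was 0.71 for Lyve1, 0.65 for Cd163, 0.45 for F13a1 and -0.52 for Cd68, each without overlap between these groups, with an exact two-sided permutation p of 0.1, the smallest that 3 against 3 libraries can give (adjusted p = 0.225 over the 9 members). Thus no ratio could pass the threshold. The differences of Mrc1 (0.25), C1qb (-0.34), C1qc (-0.20), Cx3cr1 (-0.03) and C1qa (0.00) came with overlapping libraries, and the sign for C1qa turned without Wt_30 (-0.11), Wt_55 (-0.02) or AkCk_24 (-0.06), and for Cx3cr1 without Wt_37 (0.02) or AkCk_29 (0.04).

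**Figure D3:**
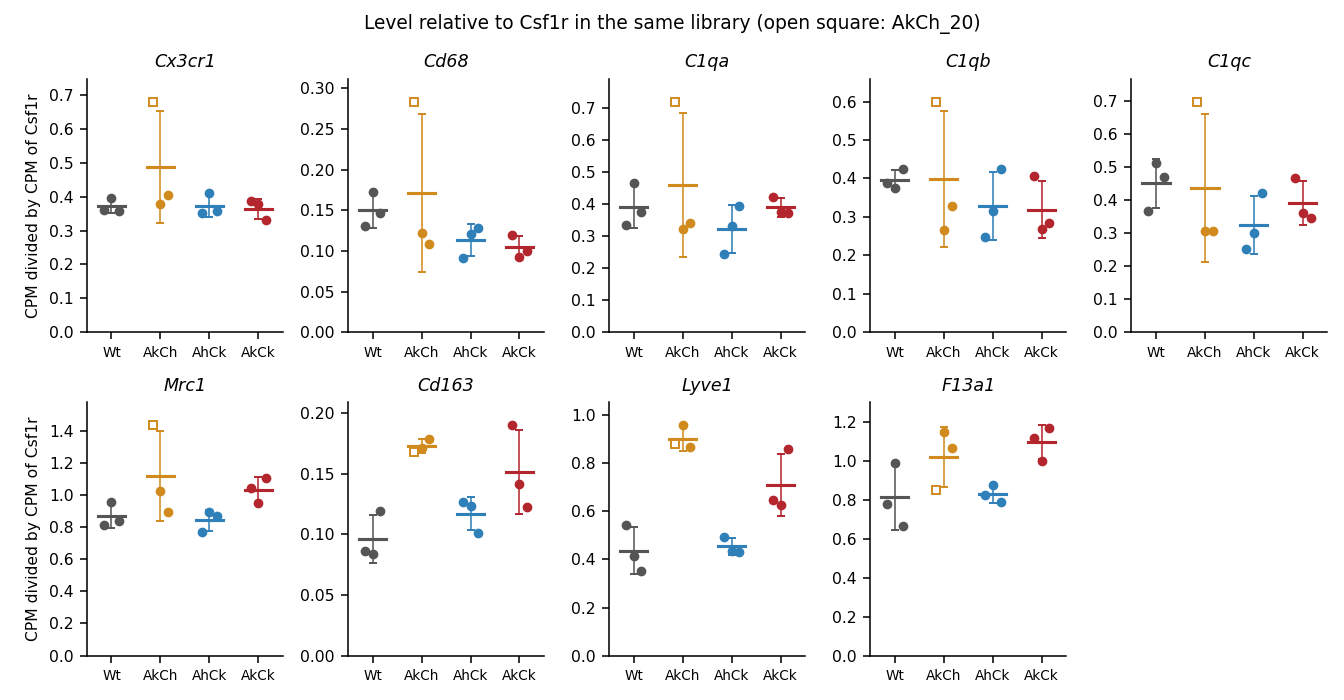
Level of 9 genes divided by that of Csf1r in the same library (y axes, ratio of CPM, from 0), with group mean (bar) and standard deviation (whisker) of 3 libraries. Lyve1 ratios are 0.350 to 0.545 in wild type and 0.626 to 0.859 in AkCk, Cd68 ratios are 0.130 to 0.173 and 0.0928 to 0.120, and AkCh_20 (open square) has the highest C1q, Cd68, Cx3cr1 and Mrc1 ratios.

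The members varied together over the 12 libraries, as a description that also rests on the difference between genotypes. Between each member and the mean of the other members, Pearson's r of standardised log2 CPM ran from 0.759 (Cd68) to 0.977 (Mrc1). Outside the members, and among 14214 genes with a mean of at least 1 CPM, the 10 genes most like the mean of the members were Srpx (r = 0.974), Medag, Gm4980, Mfap5, Fcrls, Zcchc5, Smpd3, Tspan14, Dpt and Nrk (r = 0.956). Fcrls, a scavenger receptor like protein of macrophages and microglia, had 4.06, 4.10 and 4.63 CPM in wild type and 15.02, 13.4 and 9.73 in AkCk. Mfap5 and Dpt, proteins of the extracellular matrix, had 9.94 to 12.03 and 0.715 to 1.66 CPM in wild type, and 34.2 to 53.6 and 12.8 to 16.7 CPM in AkCk.

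Other genes of macrophages are given by lists that were not trimmed by their values. Of 19 other genes common to macrophages, 8 were past the threshold in AkCk against wild type, all higher, with a median log2 fold change of 0.81. These were Laptm5 (1.27), Emr1 (1.46), Fcer1g (0.85), Fcgr3 (1.05), Csf2rb (1.06), Tyrobp (0.92), and Cd53 and Trem2 with larger adjusted p-values. Mertk, the most abundant (32.7 CPM on average), had 0.45 (adjusted p = 0.0920), and Ptprc, the gene of CD45 in all white blood cells, had 0.22 (adjusted p = 0.171). The summed level of this list was 118, 114 and 110 CPM in wild type, 118, 114 and 119 in AkCh, 123, 129 and 149 in AhCk, and 187, 200 and 154 in AkCk. Of 13 other genes of resident or perivascular macrophages, 11 were tested and 2 were past the threshold, Stab1 (0.99) and Pf4 (0.91), with a list median of 0.91. Stab1, a scavenger receptor of macrophages and sinusoidal endothelium, was the most abundant at 78.6 CPM on average. The summed level was 83.5, 73.7 and 70.4 CPM in wild type, 79.3, 84.7 and 84.3 in AkCh, 88.5, 92.1 and 96.4 in AhCk, and 140, 153 and 145 in AkCk. In the AkCh and AhCk comparisons with wild type and in AkCk against AkCh, 0 genes of either list were past the threshold by edgeR, and the medians were 0.08 and 0.06, 0.21 and -0.09, and 0.78 and 0.85.

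The ligands of the receptors were measured in the same libraries. Csf1, a ligand of Csf1r, had 17.4, 19.8 and 18.6 CPM in wild type and 26.1, 31.3 and 24.2 in AkCk, and rose by 0.55 (SE 0.12, adjusted p = 0.0255). Il34, the other ligand, had 4.08, 2.40 and 3.22 CPM in wild type and 4.81, 6.62 and 4.42 in AkCk, a log2 difference of 0.71 (adjusted p = 0.0959). Spi1, which codes for PU.1, rose by 0.73 (SE 0.19, adjusted p = 0.0457), from 2.44, 3.21 and 3.09 CPM in wild type to 5.09, 5.40 and 4.04 in AkCk. Maf, a transcription factor that macrophages and other kidney cells make, rose by 0.73 (SE 0.18, adjusted p = 0.0366). Other myeloid transcription factors were not past the threshold: Cebpb had a log2 difference of 0.38 (adjusted p = 0.136), Irf8 of 0.03 (adjusted p = 0.894) and Runx1 of -0.33 (adjusted p = 0.369). Cx3cl1, the ligand of Cx3cr1, had 28.99, 25.5 and 21.9 CPM in wild type and 36.1, 46.1 and 35.4 in AkCk, and rose by 0.62 (SE 0.14, adjusted p = 0.0293). It was the most abundant and the only gene past the threshold among 5 tested of the 7 chemokine genes, with a median of 0.48 and a summed level of 24.4 to 32.6 CPM in wild type and 38.5 to 49.7 in AkCk.

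The C1q chains act with the proteases C1r and C1s, whose genes are made by stroma and epithelium as well. Serping1, which codes for the inhibitor of C1r and C1s, rose in AkCk against wild type by 0.98 (SE 0.10, adjusted p = 0.00290), C1ra by 0.93 (SE 0.16, adjusted p = 0.0113) and C1s by 0.70 (SE 0.13, adjusted p = 0.0177). C3 rose by 2.39 (SE 0.44, adjusted p = 0.0161) and C3ar1, a receptor for its fragment C3a, by 1.20 (SE 0.27, adjusted p = 0.0294). C5ar1, a receptor for C5a, had a log2 difference of 0.39 (adjusted p = 0.474) and Cr1l, a regulator on cell surfaces, of 0.18 (adjusted p = 0.125), and neither was past the threshold. C1ra had 16.2, 16.2 and 15.3 CPM in wild type and 28.2, 37.9 and 24.7 in AkCk, without overlap, as did C1s with 48.2, 50.2 and 46.0 CPM and 81.2, 90.6 and 62.2.

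Markers of other cell types moved with the macrophage genes, and their part in the result was not tested. Of 7 stroma markers 6 were past the threshold in AkCk, all higher, with a median of 1.88: Col1a1 (1.88), Lum (3.04), Col3a1 (1.56, the most abundant at 2546 CPM on average), Dcn (2.08), Postn (1.98) and Pdgfra (0.81). They summed to 3026, 3116 and 2909 CPM in wild type, 4082, 4285 and 3278 in AkCh, 3836, 4761 and 5173 in AhCk, and 8259, 10197 and 9116 in AkCk. Lyve1 is also made by lymphatic endothelium. Of 7 markers of that tissue 6 were tested, and Mmrn1 (2.78) and Figf (1.08) rose, Reln, the most abundant at 59.3 CPM on average, fell by 0.41, and Prox1, its defining transcription factor, had 2.78, 1.45 and 2.33 CPM in wild type, 0.888, 4.44 and 5.12 in AkCh, 6.81, 4.54 and 3.65 in AhCk, and 3.87, 7.59 and 3.98 in AkCk (1.24, adjusted p = 0.0523). This list summed to 150, 175 and 162 CPM in wild type, 158, 172 and 151 in AkCh, 142, 183 and 198 in AhCk, and 191, 205 and 196 in AkCk, with a median of 0.68, and Ccl21a had at most 3 counts in each library. F13a1 and Pf4 are also made by megakaryocytes. Of 7 markers of these cells 6 were tested and Itgb3 (1.03) and Pf4, which 2 lists hold, were past the threshold, with a median of 0.63, and the list, in which Pf4 was the most abundant at 8.83 CPM on average, summed to 17.9, 15.9 and 22.1 CPM in wild type, 37.1, 18.8 and 18.8 in AkCh, 19.8, 22.2 and 24.8 in AhCk, and 27.1 to 36.9 in AkCk.

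**Figure D4:**
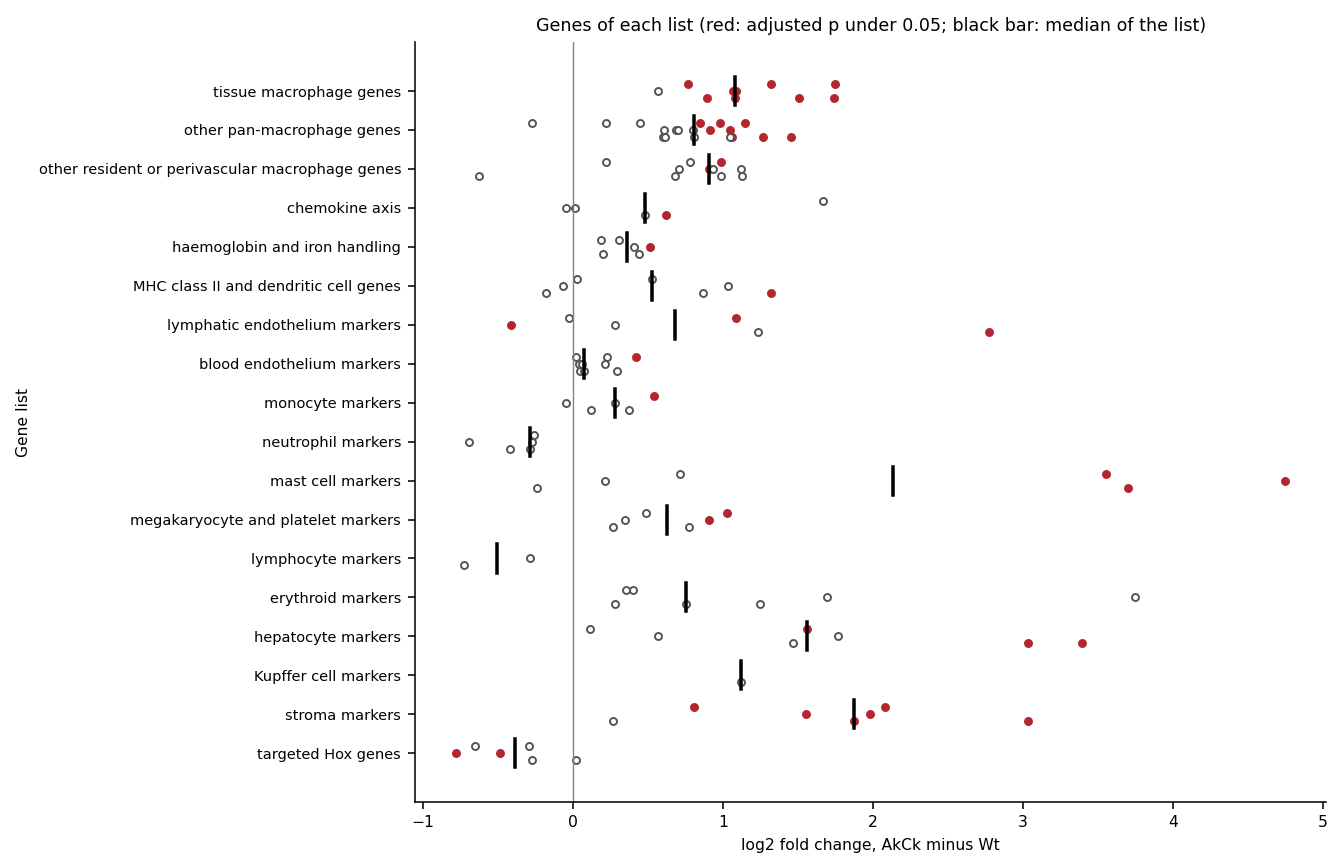
Log2 fold change, AkCk minus wild type (x axis), of each gene tested in 18 gene lists (y axis); red points are at an adjusted p under 0.05 by edgeR and black bars are list medians. The tissue macrophage genes have a median of 1.08, other pan-macrophage genes 0.81, stroma markers 1.88 and blood endothelium markers 0.08.

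Mast cell markers were the list with the highest median, 2.13. Of 7 markers 6 were tested, and Cma1 (4.75), Cpa3 (3.70) and Tpsb2 (3.55) rose, with Cpa3 at 0.716, 0.830 and 0.594 CPM in wild type and 10.7, 9.12 and 8.24 in AkCk. Kit had a log2 difference of -0.24 (adjusted p = 0.0737) and Ms4a2 of 0.21 (adjusted p = 0.741), and neither was past the threshold. Hdc, the most abundant at 359 CPM on average, had 0.72 (adjusted p = 0.0636), and the list summed to 416, 309 and 274 CPM in wild type, 165, 374 and 492 in AkCh, 519, 400 and 385 in AhCk, and 631, 554 and 419 in AkCk. Hdc made up most of these sums, with 370, 262 and 227 CPM in wild type and 564, 488 and 360 in AkCk. Of 8 hepatocyte markers 7 were tested and 3 were higher past the threshold: Alb (3.40), Ttr (1.56) and Ahsg (3.04), with a median of 1.56. Alb had 1.09, 0.669 and 0.866 CPM in wild type, 21.4, 16.4 and 0.369 in AkCh, 7.16, 2.17 and 24.6 in AhCk, and 8.65, 15.9 and 3.02 in AkCk. These libraries spread widely within each mutant group. Hepatocyte markers, most abundant Afp (82.5 CPM on average), summed to 80.2, 90.5 and 51.3 CPM in wild type, 95.8, 110 and 148 in AkCh, 135, 69.9 and 87.8 in AhCk, and 147, 151 and 74.3 in AkCk. Markers of Kupffer cells, the macrophages of liver, were at or near 0: Vsig4 had at most 3 counts in each library, Clec4f at most 0.154 CPM, Cd5l at most 0.102 CPM and Marco at most 0.255 CPM. Timd4, the most abundant and the only one tested, had 0.653, 0.306 and 0.604 CPM in AkCk (1.12, adjusted p = 0.165), and the list summed to 0.212, 0.300 and 0.569 CPM in wild type, 0.386, 0.386 and 0.422 in AkCh, 0.294, 0.573 and 0.0829 in AhCk, and 0.705, 0.662 and 0.824 in AkCk. In AkCk these sums, though low, were above those of all other libraries, but the lowest (0.662 in AkCk_27) lay close to AhCk_110 (0.573). At this level 3 counts in AkCk_27 are 0.0747 CPM before the TMM factor, and no test was run on the sums.

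**Figure D5:**
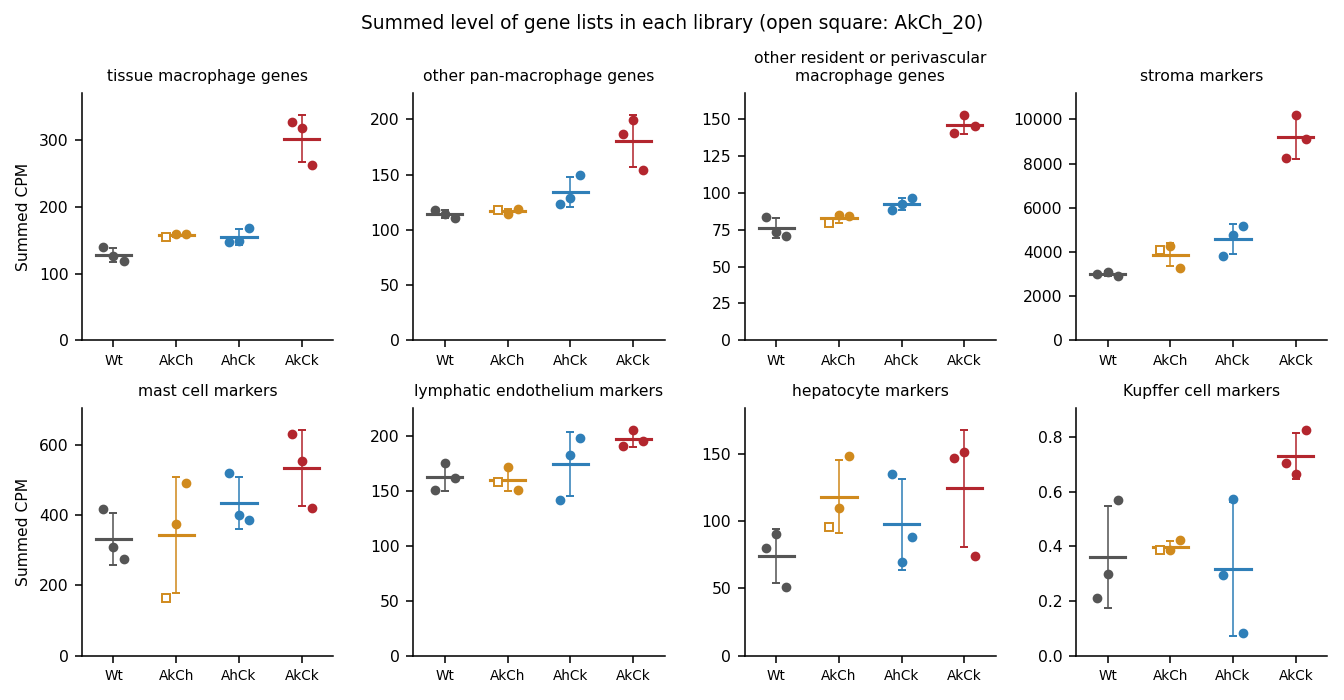
Summed CPM of 8 gene lists in each library (points, y axes from 0), with the group mean (bar) and standard deviation (whisker) of 3 libraries. AkCk libraries sum to 262 to 327 CPM for the tissue macrophage genes and 8259 to 10197 CPM for stroma markers, against 118 to 139 and 2909 to 3116 CPM in wild type, and Kupffer cell markers to 0.662 to 0.824 CPM in AkCk against 0.212 to 0.569 in wild type.

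The genes mutated in these mice were read as a check of the labels. In AkCk against wild type 2 of 6 were past the threshold, both lower: Hoxc10 fell by 0.78 and Hoxa10, the most abundant at 121 CPM on average, fell by 0.49. The median of the 6 was -0.39, and they summed to 257, 301 and 335 CPM in wild type, 394, 240 and 242 in AkCh, 238, 246 and 265 in AhCk, and 214, 208 and 236 in AkCk. RNA of all 6 genes was present in all 12 libraries, as frameshift alleles allow, so these levels do not tell the genotypes apart.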

How the data were processed

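RNA was measured in 12 libraries of whole E18.5 kidneys, 3 of each of 4 genotypes, each a separate label. The authors aligned reads to mm10 and quantified genes with Strand NGS. The deposited raw table gives expected counts per gene, not all whole, and the authors' normalised table gives log2 values. The counts were rounded to whole numbers before use, and all CPM except the floor given next are scaled by depth times the TMM factor. Depth on genes was 28616878 to 47067926 (median 39328507), so that a floor of 3 counts is 0.0637 to 0.105 CPM before the TMM factor is applied, which covers counting error only. Groups were compared with edgeR 4.0.16 (TMM factors, quasi-likelihood test, genes kept by filterByExpr with a count of at least 10 and a total of at least 15, p adjusted by Benjamini and Hochberg over all genes tested, threshold 0.05), with each comparison fitted on its own 6 libraries. Standard errors are the absolute log2 fold change divided by the square root of the F statistic of the edgeR test. The 3 comparisons with wild type share its libraries. No paired analysis was possible because the groups share no replicate numbers. Ratios to Csf1r were compared by an exact two-sided permutation test. Levels per length used union exon lengths of GENCODE M21 (1040 to 6739 bases for the members). Alternatives were RLE factors, library size alone, DESeq2 1.42.0, limma 3.58.1 on the deposited log2 values, all genes with at least 1 count, all 12 libraries in one fit, the 9 libraries of one run, these 9 with Xist as a covariate, each library left out, and Cd68 as the reference of ratios. Analyses ran in R 4.3.3 and in Python 3.11.15 with pandas 2.3.3, scipy 1.17.1 and matplotlib 3.10.9. Of the steps, only the edgeR fit was tested on simulated data, for the comparison of AkCk with wild type. The members and the 21 gene lists were chosen with earlier results of these data known, and the kidney list after the data were seen. Whole-list results are not given for the kidney genes, the Csf1r ligands and transcription factors, and the complement genes. Cell fractions were not analysed here.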

Additional observations from a re-analysis of the deposited data

How the results depend on the processing

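In AkCk against wild type, 71 values of members kept their direction and their side of the threshold under the alternatives, 7 (of C1qb and C1qc) lost the call and 2 (of Cd68) gained it, and with a library left out 52 kept both and 8 (of C1qb and C1qc) lost the call. The count of all genes past the threshold, 2171, was 3380 by DESeq2, 1190 with all 12 libraries in the fit, 690 with the 9 libraries of one run, 767 with these 9 libraries and Xist as a covariate, 1215 by limma, and from 535 to 3386 with a library left out. In AkCh against wild type, 0 genes became 22 by DESeq2, 2 with all 12 libraries, 1 by limma and from 0 to 8 with a library left out. Log2 differences near 0 turned there: Csf1r was -0.060 with library size alone and -0.14 with the 9 libraries of one run and Xist as a covariate, C1qb was 0.35 and C1qc 0.30 with that same fit. With a library left out they ran from -0.071 to 0.13 for Csf1r, from -0.23 to 0.29 for Cd68, from -0.10 to 0.32 for C1qa, from -0.28 to 0.11 for C1qb and from -0.40 to 0.037 for C1qc, and 50 of 60 values kept their direction. In AhCk against wild type, 376 genes became 1318 by DESeq2 (with 1 member, Csf1r, past the threshold), 149 with all 12 libraries, 158 by limma and from 60 to 549 with a library left out. With a library left out, Cd68 ran from -0.16 to 0.081, C1qa from -0.11 to 0.24, C1qb from -0.17 to 0.24 and C1qc from -0.37 to 0.047.

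In AkCk against AkCh, 0 members became 6 by DESeq2, 4 with all 12 libraries, 2 with the 9 libraries of one run, 6 with these 9 libraries and Xist as a covariate, and from 0 to 6 with a library left out. All genes past the threshold there were 554 by DESeq2, 1 with all genes of at least 1 count, 540 with all 12 libraries, 181 with the 9 libraries of one run, 792 with these 9 libraries and Xist as a covariate, 1 by limma, and from 0 to 687 with a library left out. Ratios to Csf1r in AkCk against wild type ran from -0.11 to 0.14 for C1qa and from -0.069 to 0.042 for Cx3cr1 with a library left out. The cause was not tested for any of these. Each group has 3 libraries, the AhCk group is confounded with its run, and the sexes are unequal, with no wild type female. Members had 86 to 2415 counts in a library, so that depth limits the lowest of them, Cd163 and Cd68, most.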

Other observations

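Lists of other blood cells, beside the mast cell and megakaryocyte markers, were read in the same libraries. Of 9 neutrophil markers, 5 were tested and 0 were past the threshold by edgeR in AkCk against wild type, with a median of -0.29, and Ly6g was at 0 in all libraries. S100a9, the most abundant at 2.37 CPM on average, had 3.82, 1.89 and 3.39 CPM in wild type and 2.74, 2.95 and 1.81 in AkCk, and the list summed to 9.12, 4.87 and 9.18 CPM in wild type, 10.3, 3.81 and 3.14 in AkCh, 4.70, 3.54 and 6.61 in AhCk, and 7.55, 6.65 and 4.48 in AkCk. Of 8 lymphocyte markers 2 were tested and 0 were past the threshold, with a median of -0.51, Cd3e at no more than 3 counts in each library, and Cd79b the most abundant at 5.58 CPM on average. They summed to 6.47, 7.49 and 8.09 CPM in wild type, 9.11, 5.81 and 5.62 in AkCh, 6.11, 5.44 and 5.60 in AhCk, and 6.74, 4.79 and 6.26 in AkCk. Of 10 erythroid markers 7 were tested and 0 were past the threshold, with a median of 0.76 and 7 of 7 above 0. Hbb-bs was the most abundant at 708 CPM on average, and the list summed to 550, 1312 and 1379 CPM in wild type, 2014, 569 and 777 in AkCh, 536, 1808 and 5858 in AhCk, and 1544, 1544 and 1162 in AkCk. Of 5 monocyte markers found, 1 was past the threshold, Plac8 (0.54), with a median of 0.28, Fn1 the most abundant at 782 CPM on average, and sums of 773, 851 and 847 CPM in wild type, 555, 893 and 632 in AkCh, 577, 958 and 930 in AhCk, and 956, 1075 and 1001 in AkCk.

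Of 7 tested MHC class II and dendritic cell genes, 1 was past the threshold in AkCk against wild type, Cd74 (1.32), with a median of 0.53 and Zbtb46 the most abundant at 14.5 CPM on average. They summed to 35.6 to 48.5 CPM in wild type, 62.8, 34.5 and 35.9 in AkCh, 44.5, 42.8 and 60.4 in AhCk, and 49.97, 67.8 and 65.3 in AkCk. Of 6 tested genes of haemoglobin and iron handling, 1 was past the threshold, Slc40a1 (0.51), the iron exporter of macrophages and other cells, with a median of 0.36. Ftl1 was the most abundant at 1355 CPM on average, and the list summed to 2096, 1975 and 1847 CPM in wild type, 2534, 2019 and 2544 in AkCh, 2725, 2063 and 2210 in AhCk, and 2304, 2860 and 2416 in AkCk. Of 9 markers of blood endothelium 1 was past the threshold, Ehd3 (0.42), with a median of 0.08 and Cdh5 the most abundant at 197 CPM on average. They summed to 940, 1014 and 943 CPM in wild type, 794, 955 and 960 in AkCh, 957, 983 and 1014 in AhCk, and 1074, 1130 and 1054 in AkCk. Of 4 tested sex genes 0 were past the threshold, with a median of -1.80, and the list, most abundant Xist at 76.0 CPM on average, summed to 212, 197 and 192 CPM in wild type, 158, 190 and 254 in AkCh, 169, 336 and 142 in AhCk, and 173, 72.6 and 60.4 in AkCk.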
